A study of Homo sapiens with 9 samples.

Results

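GAS1 and 8 core genes of the Hedgehog pathway, PTCH1, SMO, GLI1, GLI2, GLI3, HHIP, BOC and CDON, were followed across metastatic melanoma cells with and without WWOX. These 9 genes of the 19775 on the array were chosen by name, and every probe set annotated to exactly 1 of them was taken, 26 in all. All 9 arrays held RNA from MDA-MB435S, an established metastatic melanoma line. WWOX cells carried wild-type WWOX (n = 3 arrays), WFPA cells carried WWOX with the WFPA mutation, which disrupts binding through its WW domain (n = 3), and EV cells carried the empty vector (n = 3). All groups were stable G418-selected clones, and whether a group's 3 arrays came from separate cultures is not stated, so the p-values measure only the spread between these arrays. The vector field of the labels names wild-type WWOX for the EV arrays and none for the WWOX arrays. The titles name the groups the other way, but the EV titles also carry the tag wox+, whose meaning is not stated. The titles were used to form the groups.

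Hedgehog ligands act by releasing a brake. PTCH1, the ligand receptor, holds the membrane protein SMO inactive until a ligand binds, and active SMO in the primary cilium then turns the GLI transcription factors from repressors into activators. GAS1, CDON and BOC are cell-surface co-receptors that help PTCH1 to bind the ligand, as shown mostly in mouse embryos, and HHIP binds the ligand and keeps it from PTCH1. PTCH1, GLI1 and HHIP are themselves GLI target genes, so that their transcripts are the usual readouts of pathway activity. GAS1 was first known as a growth arrest-specific gene of mouse fibroblasts, and it has been described as a suppressor of melanoma metastasis in mice.

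The DNA upstream of the pair of co-receptor genes that rose in WWOX cells is given first, with a match to the GLI consensus at PTCH1, a GLI target gene. Sequences are from RefSeq on GRCh38.p14, 5′ to 3′ on the strand of the gene, with capitals only for the letters of the GLI consensus. In the order printed they lie at chr9:86947507-86947756, chr11:126063336-126063551 and chr9:95509420-95509448, all on the minus strand.
GAS1: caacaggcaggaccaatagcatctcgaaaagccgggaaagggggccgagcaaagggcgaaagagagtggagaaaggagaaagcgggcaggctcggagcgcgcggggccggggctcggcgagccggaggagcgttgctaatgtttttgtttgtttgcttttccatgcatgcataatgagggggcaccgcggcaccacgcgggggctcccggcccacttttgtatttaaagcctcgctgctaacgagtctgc
CDON: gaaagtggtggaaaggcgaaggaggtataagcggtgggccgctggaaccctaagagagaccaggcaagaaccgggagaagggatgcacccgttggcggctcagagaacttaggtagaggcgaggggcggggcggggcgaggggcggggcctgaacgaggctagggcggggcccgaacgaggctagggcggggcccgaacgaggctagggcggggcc
PTCH1: gttgcctaccTGGGTGGTCtctctacttt
The GAS1 stretch is the 250 bases before the annotated start of the gene and has 60.0% G and C and 21 CpG. The CDON stretch is the 216 bases before its annotated start, with 68.5% G and C and 19 CpG. Neither stretch holds the GLI core CCACCC on either strand. The PTCH1 stretch holds TGGGTGGTC, the reverse complement of the GLI consensus GACCACCCA, and its first capital lies 172 bases before 1 of the 5 PTCH1 start sites in the table. That start site, at 95509266, and the stretch itself lie inside the annotated gene (95442980 to 95516971), unlike the GAS1 and CDON stretches.

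Start-site windows were found for 7 of the 9 genes, 15 windows of 250 bases in all. The GLI consensus was present in 1 of these 15, that of PTCH1, against 0.199% of all 35116 windows. The core alone, which is part of the consensus, was present in 6 of the 15 windows, against 31.3% of all windows. Those 6 were 2 of 3 at CDON, 1 of 2 at GLI2, 1 of 1 at HHIP and 2 of 5 at PTCH1. A match is a description of letters and not a bound site.

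WWOX itself was checked first, at its 5 probe sets. At 223868_s_at its log2 intensity averaged 10.66 ± 0.276 in WWOX cells, 10.24 ± 0.118 in WFPA cells and 8.94 ± 0.284 in EV cells (SD, n = 3 each), and at 221147_x_at it averaged 8.18 ± 0.297 in WWOX, 7.64 ± 0.0684 in WFPA and 4.49 ± 0.314 in EV cells. At these probe sets WWOX and WFPA cells both lay above EV cells, which follows the groups formed from the titles. WWOX cells lay 0.42 and 0.54 above WFPA cells there, and neither difference was called (adjusted p = 0.141 and 0.0787 from limma). These levels thus do not tell the WWOX arrays from the WFPA arrays. The other 3 WWOX probe sets were not called in WWOX cells against the other groups. At 1 of them, 223747_x_at, EV cells were the highest, with 8.87 ± 0.203 in WWOX, 8.38 ± 0.197 in WFPA and 9.11 ± 0.311 in EV cells. All WFPA arrays lay below all EV arrays there, with a difference of -0.73 (adjusted p = 0.0433 from limma, under 2-fold), which goes against those groups. The array medians lay between 6.03 and 6.05 and the lower quartiles between 4.22 and 4.34, and no background level is given. A value under the lower quartile is therefore described below as dim.

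In WWOX cells, 3 of the 26 probe sets rose against the mean of WFPA and EV cells and 0 fell. The 3 read GAS1 (204457_s_at and 228187_at) and CDON (227526_at). A call needed at least a 2-fold change and a limma p under 0.05 after Benjamini-Hochberg adjustment, and by that rule 1.46% of all 54613 probe sets were higher and 1.77% were lower. At an unadjusted p under 0.05 from limma, 5 of the 26 were higher and 0 lower, beside 14.8% and 16% of all probe sets, and a plain 1-way model also called 3 and 0. The median change of the 26 was 0.12 on the log2 scale, beside 0.03 over all probe sets.

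GAS1 showed the largest difference among the 26 probe sets. At 204457_s_at its log2 intensity was 12.14, 12.13 and 11.91 on the WWOX arrays, 7.44, 7.24 and 7.43 on the WFPA arrays, and 9.15, 8.94 and 9.03 on the EV arrays. All WWOX arrays lay above all others, and all WFPA arrays lay below all EV arrays. The means were 12.06 ± 0.130 in WWOX cells, 7.37 ± 0.109 in WFPA cells and 9.04 ± 0.105 in EV cells (SD, n = 3 each). WWOX cells lay 3.86 above the mean of WFPA and EV cells, which is 14.5-fold (standard error 0.0911, 95% interval 3.65 to 4.06, adjusted p = 6.75e-08 from limma).

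Each pair of groups also differed at this GAS1 probe set. WWOX cells lay 4.69 above WFPA cells, or 25.8-fold (standard error 0.105, adjusted p = 7.02e-08 from limma), and 3.02 above EV cells, or 8.12-fold (standard error 0.105, adjusted p = 4.27e-07 from limma). These comparisons share the WWOX arrays. WFPA cells fell by 1.67 against EV cells, a 3.18-fold lower level (95% interval -1.91 to -1.43, adjusted p = 4.12e-05 from limma). The order at 204457_s_at was thus WWOX cells, EV cells, WFPA cells, with every step past the test. The step between EV and WFPA cells rests on this probe set alone, and with the mean of all 3 GAS1 probe sets, a choice made after seeing the data, the WFPA difference from EV cells was -0.72 (adjusted p = 7.21e-04 from limma), under 2-fold. With that mean the WWOX rise over both groups was 1.76 on the log2 scale and still called.

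A further GAS1 probe set, 228187_at, also rose in WWOX cells. Its log2 intensity was 6.58, 6.93 and 6.56 on the WWOX arrays, 5.20, 5.42 and 5.13 on the WFPA arrays, and 5.26, 5.91 and 5.58 on the EV arrays. The WWOX arrays again stood above all others, while the WFPA and EV arrays overlapped. WWOX cells lay 1.27 above the mean of both other groups (standard error 0.151, adjusted p = 5.75e-04 from limma), 1.44 above WFPA cells (adjusted p = 6.68e-04) and 1.11 above EV cells (adjusted p = 0.00370). The difference of WFPA from EV cells was -0.34 (95% interval -0.73 to 0.06, adjusted p = 0.350 from limma). Without WWOX replicate 2 the rise over EV cells was 0.98, and without EV replicate 1 it was 0.95, both just under 2-fold.

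At the remaining GAS1 probe set, 204456_s_at, no difference was called. It read 5.77, 5.77 and 6.23 on the WWOX arrays, 5.66, 5.77 and 5.64 on the WFPA arrays, and 5.72, 6.09 and 5.70 on the EV arrays, so that the groups overlapped. The WWOX change against both other groups was 0.15 (95% interval -0.15 to 0.45, adjusted p = 0.467 from limma). The upper bound lies far below the change at 204457_s_at. The files do not say which part of the transcript each probe set reads, and the reason for the gap was not tested.

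CDON, a co-receptor of the immunoglobulin superfamily, rose at 1 of its 3 probe sets. At 227526_at the log2 intensity was 8.07, 8.30 and 7.84 on the WWOX arrays, 6.74, 6.40 and 6.59 on the WFPA arrays, and 7.11, 6.65 and 6.83 on the EV arrays. No WWOX array overlapped with either other group, and WFPA and EV arrays overlapped with each other. WWOX cells averaged 8.07 ± 0.232, WFPA cells 6.58 ± 0.172 and EV cells 6.86 ± 0.232 (SD, n = 3 each).

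The CDON rise was 1.35 over the mean of WFPA and EV cells, or 2.55-fold (standard error 0.138, 95% interval 1.04 to 1.66, adjusted p = 2.43e-04 from limma). It was 1.49 over WFPA cells (adjusted p = 3.35e-04) and 1.20 over EV cells (adjusted p = 0.00144 from limma). Between WFPA and EV cells the difference was -0.29 (95% interval -0.65 to 0.07, adjusted p = 0.387 from limma). The other CDON probe sets, 1563677_at and 207230_at, were dim on all 9 arrays, with values of 2.13 to 2.57 and 3.17 to 3.75, and their changes in WWOX cells were -0.06 and 0.01. With the mean of all 3 CDON probe sets, chosen likewise after seeing the data, the rise was 0.43 (adjusted p = 0.00253 from limma), under 2-fold.

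**Figure D1:**
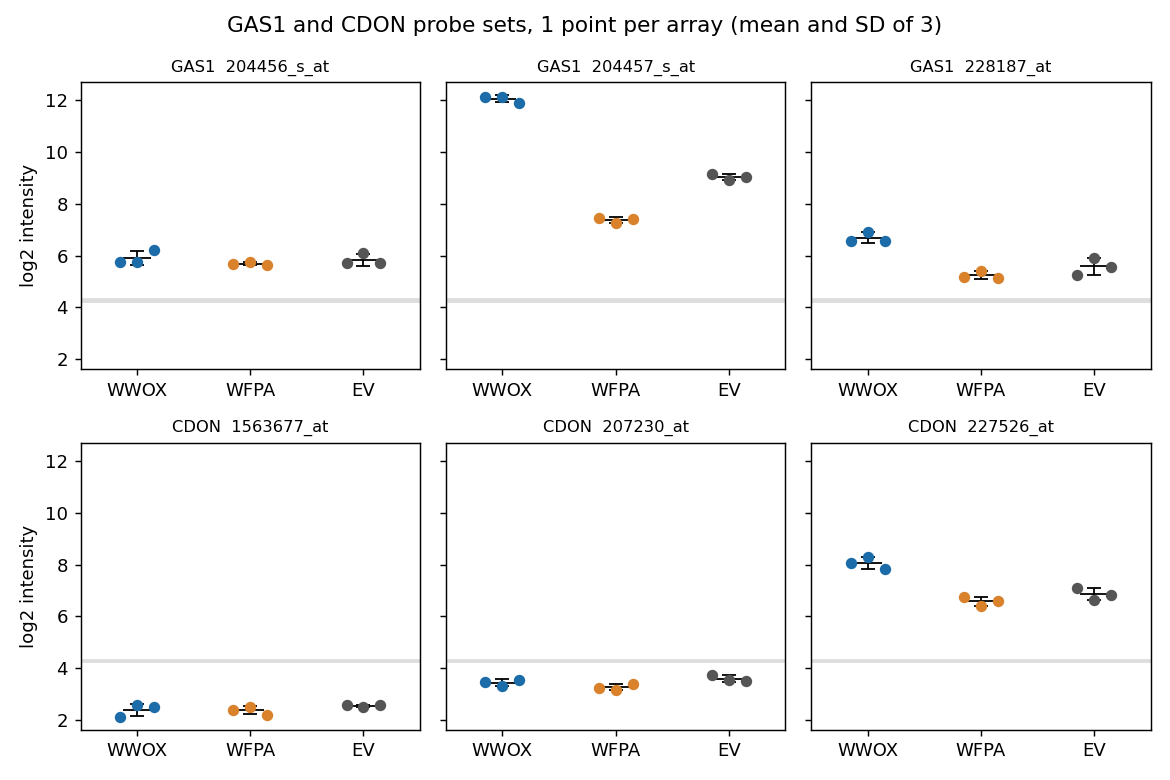
Log2 intensity (y axis) at the 3 GAS1 and 3 CDON probe sets, with each array as a point and black bars for the mean and SD of 3, in WWOX, WFPA and EV cells. The grey band spans the lower quartiles of the arrays, 4.22 to 4.34. At GAS1 204457_s_at the means are 12.06 in WWOX, 7.37 in WFPA and 9.04 in EV cells, and 2 CDON probe sets lie under the band.

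Markers of cell types differed between the same groups. In WWOX cells 3 of 7 melanocytic markers were higher by the call used above (MITF by 1.80, SOX10 by 5.43 and S100B by 6.30). By that call 1.94% of all genes were higher and 2.06% lower. PMEL, TYR, TYRP1 and MLANA changed by -0.08, 0.31, -0.07 and 0.04 and were not called. SOX10 averaged 10.55 in WWOX, 5.33 in WFPA and 4.89 in EV cells, and S100B 12.23, 6.31 and 5.55 in the same order. The log2 of the summed intensity of the 7 markers was 14.03 to 14.23 on WWOX arrays, 11.47 to 11.59 on WFPA arrays and 11.91 to 11.97 on EV arrays. Of 8 fibroblast markers 3 were higher (COL1A2, LUM and FAP), with sums of 9.52 to 9.58 in WWOX, 9.08 to 9.15 in WFPA and 8.72 to 8.92 in EV cells. Of 8 epithelial markers 3 were lower (KRT8, KRT18 and GATA3), with sums of 11.99 to 12.14 in WWOX, 13.30 to 13.52 in WFPA and 13.49 to 13.61 in EV cells.

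Of 5 haematopoietic markers, PTPRC was lower, with sums of 7.83 to 8.08 in WWOX, 8.58 to 8.74 in WFPA and 10.02 to 10.26 in EV cells. None of 5 endothelial markers was called. At an unadjusted p under 0.05 from limma 2 were higher and 0 lower, beside 18% and 17.3% of all genes. Their sums were 7.80 to 7.99 in WWOX, 7.67 to 7.73 in WFPA and 7.63 to 7.72 in EV cells. TYRP1, EPCAM and CD3E were dim on all 9 arrays. Bright genes weigh most in these sums. Among them were MITF (13.43 in WWOX, 11.40 in WFPA and 11.87 in EV cells) and KRT18 (11.74, 13.14 and 13.39 in the same order). In EV cells PTPRC was another, at 9.88. The sums thus do not describe the marker lists as a whole. The part of these shifts in the GAS1 and CDON values was not tested. In bulk RNA, fewer cells that express a gene and less of its RNA per cell cannot be told apart.

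BOC, the co-receptor most closely related to CDON, was not called. Its 3 probe sets changed in WWOX cells by 0.17, 0.15 and 0.03 against the mean of WFPA and EV cells, and the WWOX arrays overlapped with the others at each. At 224184_s_at, for example, BOC was 5.82, 6.02 and 6.02 on the WWOX arrays, 5.66, 5.76 and 5.82 on the WFPA arrays, and 5.96, 5.60 and 5.88 on the EV arrays. The 95% intervals of the 3 changes together spanned -0.23 to 0.42. Of the co-receptors, then, GAS1 and CDON had called probe sets and BOC had none.

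PTCH1, the receptor and a GLI target, was not called at any of 5 probe sets. At 209815_at it was 9.90, 9.86 and 9.44 on the WWOX arrays, 9.85, 9.91 and 9.73 on the WFPA arrays, and 9.38, 9.42 and 9.59 on the EV arrays. The change in WWOX cells was 0.09 (95% interval -0.18 to 0.35, adjusted p = 0.653 from limma). The WFPA arrays all lay above the EV arrays here, by 0.36 on average, and this missed the threshold (adjusted p = 0.169 from limma).

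The other PTCH1 probe sets gave changes of -0.01, 0.19, -0.47 and 0.13 in WWOX cells. The value of -0.47 was at 209816_at, where the arrays of each group were spread widely (6.06, 5.08 and 5.60 in WWOX, 6.75, 6.21 and 5.59 in WFPA, 5.83, 5.83 and 6.12 in EV cells), and its interval ran from -1.08 to 0.13. PTCH1 1555520_at was dim on 6 of 9 arrays. A 2-fold PTCH1 change lay outside the intervals at 208522_s_at, 209815_at and 238754_at and just inside at 209816_at. The interval at the dim probe set sets no limit on the transcript.

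HHIP, the ligand trap and also a GLI target, was dim on all 9 arrays at all 4 probe sets. Its values ran from 2.01 to 4.11, and the 4 changes in WWOX cells were 0.12, -0.01, 0.23 and 0.24, none of them called. At 230135_at the 3 WWOX arrays read 3.91, 4.11 and 4.04, against 3.77, 3.71 and 4.04 in WFPA cells and 3.70, 3.92 and 3.60 in EV cells. Changes at this level are of uncertain size.

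SMO, the signal transducer that PTCH1 restrains, was slightly higher in WWOX cells. Its only probe set, 218629_at, read 5.03, 5.18 and 5.11 on the WWOX arrays, 4.81, 4.68 and 4.55 on the WFPA arrays, and 4.38, 4.57 and 4.85 on the EV arrays. The WWOX arrays all lay above the others, and WFPA and EV arrays overlapped. SMO lay 0.47 above the mean of WFPA and EV cells, or 1.38-fold (standard error 0.113, 95% interval 0.21 to 0.72, adjusted p = 0.0228 from limma). This passed the p threshold and not the fold limit. The values lie not far above the lower quartiles of the arrays (4.22 to 4.34), so that the size of the change is uncertain.

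Without a fold limit, 6.88% of all probe sets were higher in WWOX cells than the mean of the others, and 5.05% were higher than in EV cells. SMO against EV cells was 0.51 (adjusted p = 0.0371 from limma), and against WFPA cells it was 0.43 (adjusted p = 0.0555), which missed the threshold. Leaving out each array in turn gave 0.41 to 0.53 against the mean of both, with adjusted p between 0.0101 and 0.0826 from limma.

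GLI1, the GLI factor that is itself switched on by the pathway, was dim on all 9 arrays. Its log2 intensity was 3.33, 3.62 and 3.50 on the WWOX arrays, 3.49, 3.33 and 3.50 on the WFPA arrays, and 3.57, 3.46 and 3.72 on the EV arrays. The 3 groups overlapped. The change in WWOX cells was -0.03 (95% interval -0.24 to 0.19, adjusted p = 0.884 from limma).

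GLI2, the main activator among the GLI factors, was not called at any of its 3 probe sets, with changes of -0.12, 0.06 and 0.04. At 208057_s_at it read 6.73, 6.75 and 6.61 on the WWOX arrays, 6.56, 6.44 and 6.55 on the WFPA arrays, and 6.74, 6.62 and 6.89 on the EV arrays. The WFPA arrays all lay below the EV arrays, by 0.24 on average, and this was not past the threshold (adjusted p = 0.219 from limma).

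GLI3, which in the absence of ligand is cut to a repressor, gave changes of 0.26, 0.12 and 0.14 at its 3 probe sets. The first of these was at 1569342_at, with 7.12, 7.15 and 7.34 on the WWOX arrays, 6.95, 6.79 and 7.002 on the WFPA arrays, and 7.03, 7.02 and 6.85 on the EV arrays. The WWOX arrays lay above all others, by a small margin, and the test was not passed (95% interval 0.06 to 0.47, adjusted p = 0.0810 from limma). At 227376_at GLI3 read 10.36, 10.39 and 10.19 on the WWOX arrays, 10.14, 10.05 and 10.04 on the WFPA arrays, and 10.33, 10.22 and 10.25 on the EV arrays.

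Thus the 20 probe sets of the 7 genes other than GAS1 and CDON gave 0 calls in WWOX cells against the mean of the others. That count follows from leaving out the genes with calls, and over all probe sets only 1.46% were higher and 1.77% lower. The changes of these 20 ran from -0.47 to 0.47 with a median of 0.12. At an unadjusted p under 0.05 from limma, 2 were higher and 0 lower, beside 14.8% and 16% of all probe sets. Those 2 were SMO and GLI3 1569342_at. With 7 of the 26 probe sets dim on all arrays and 1 on some, 18 were above the lower quartile throughout.

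**Figure D2:**
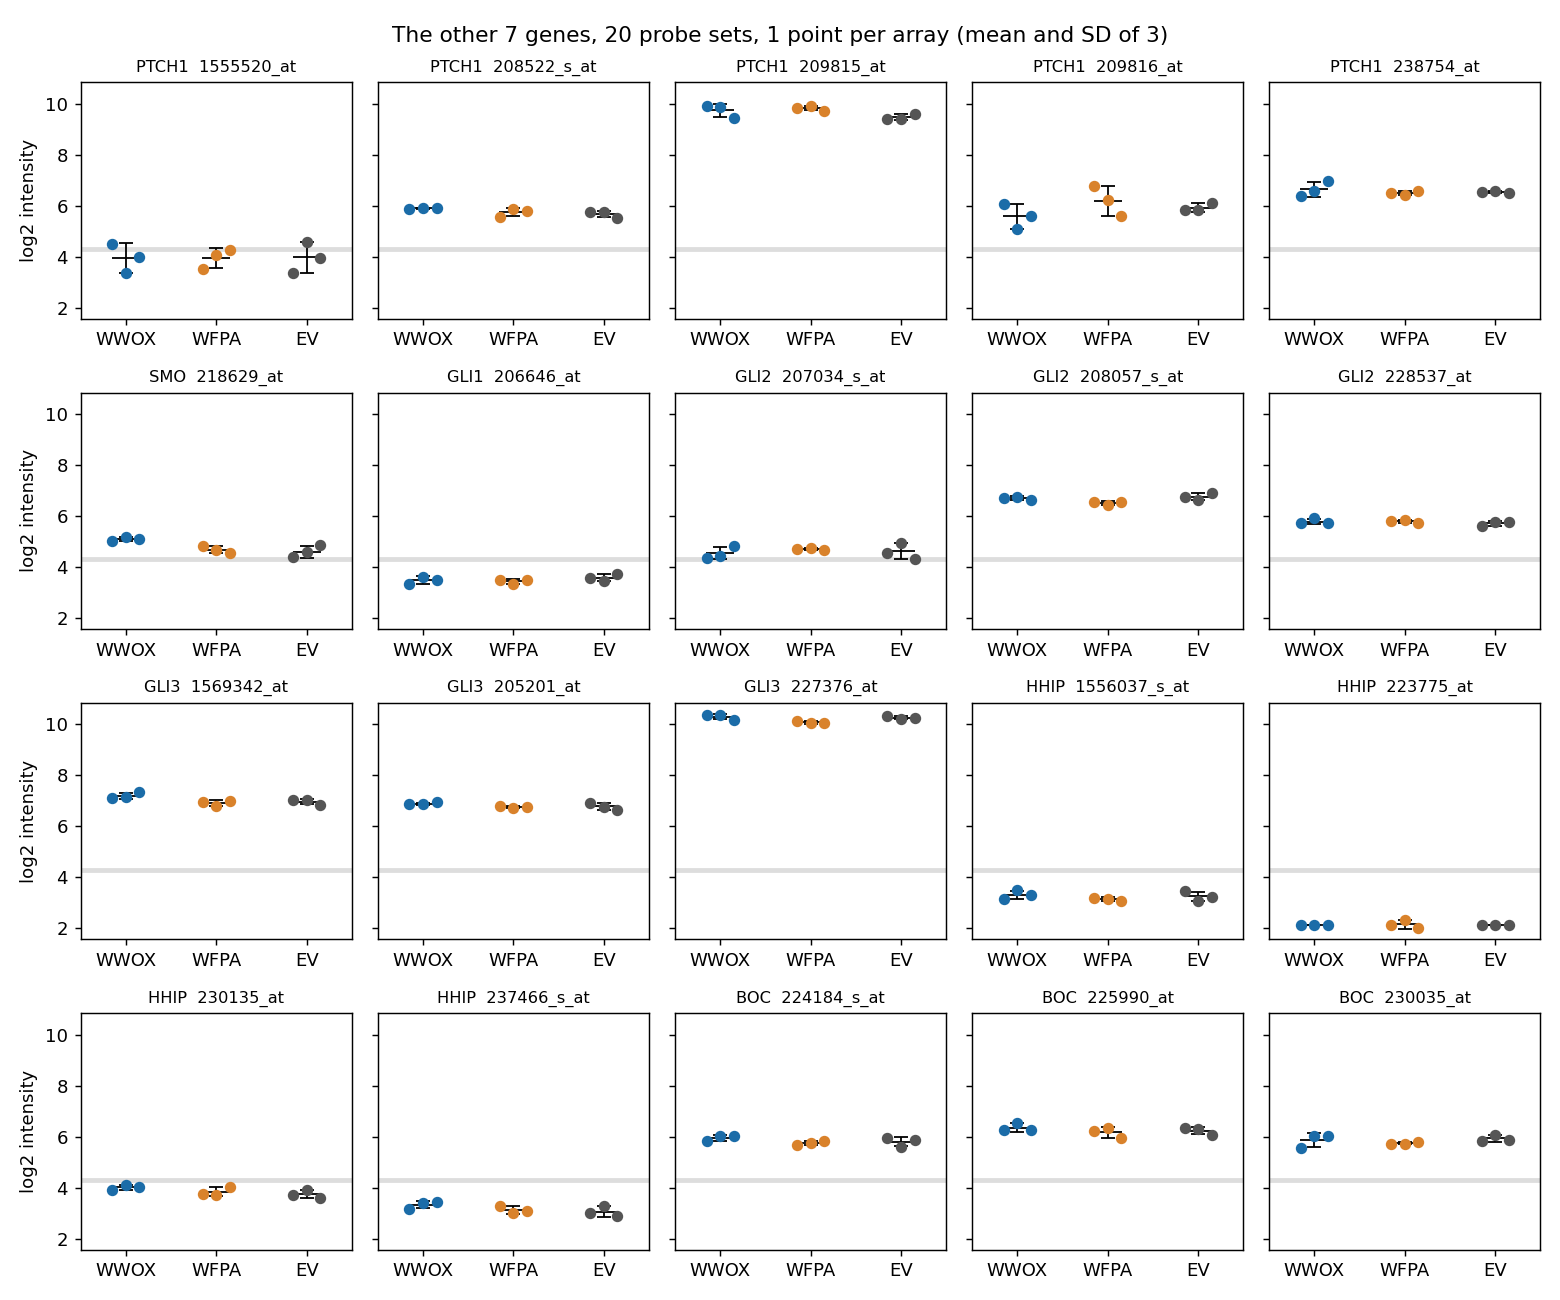
Log2 intensity (y axis) at the 20 probe sets of PTCH1, SMO, GLI1, GLI2, GLI3, HHIP and BOC, with each array as a point and bars for the mean and SD of 3, in WWOX, WFPA and EV cells. The grey band spans the lower quartiles of the arrays (4.22 to 4.34), and GLI1 and all 4 HHIP probe sets lie under it.

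The single comparisons gave the same 3 probe sets. Against WFPA cells, 3 of 26 were higher and 0 lower in WWOX cells, where 1.51% of all probe sets were higher and 2.47% lower. Against EV cells, 3 were higher and 0 lower, beside 1.66% and 1.64% of all. Both comparisons use the same WWOX arrays. At an unadjusted p under 0.05 from limma, 6 were higher and 0 lower in each, beside 15.4% higher and 15.4% lower of all probe sets against WFPA cells and 11.3% and 13.8% against EV cells.

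The WFPA mutant was also set against the empty vector. Here 1 of 26 probe sets was lower, GAS1 204457_s_at, and 0 were higher, while 1.26% of all probe sets were higher and 0.474% lower. At an unadjusted p under 0.05 from limma, 1 was higher (PTCH1 209815_at) and 3 were lower, GAS1 204457_s_at with GLI2 208057_s_at and CDON 207230_at, beside 9.75% higher and 9.39% lower of all probe sets. This CDON probe set was dim on all arrays.

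**Figure D3:**
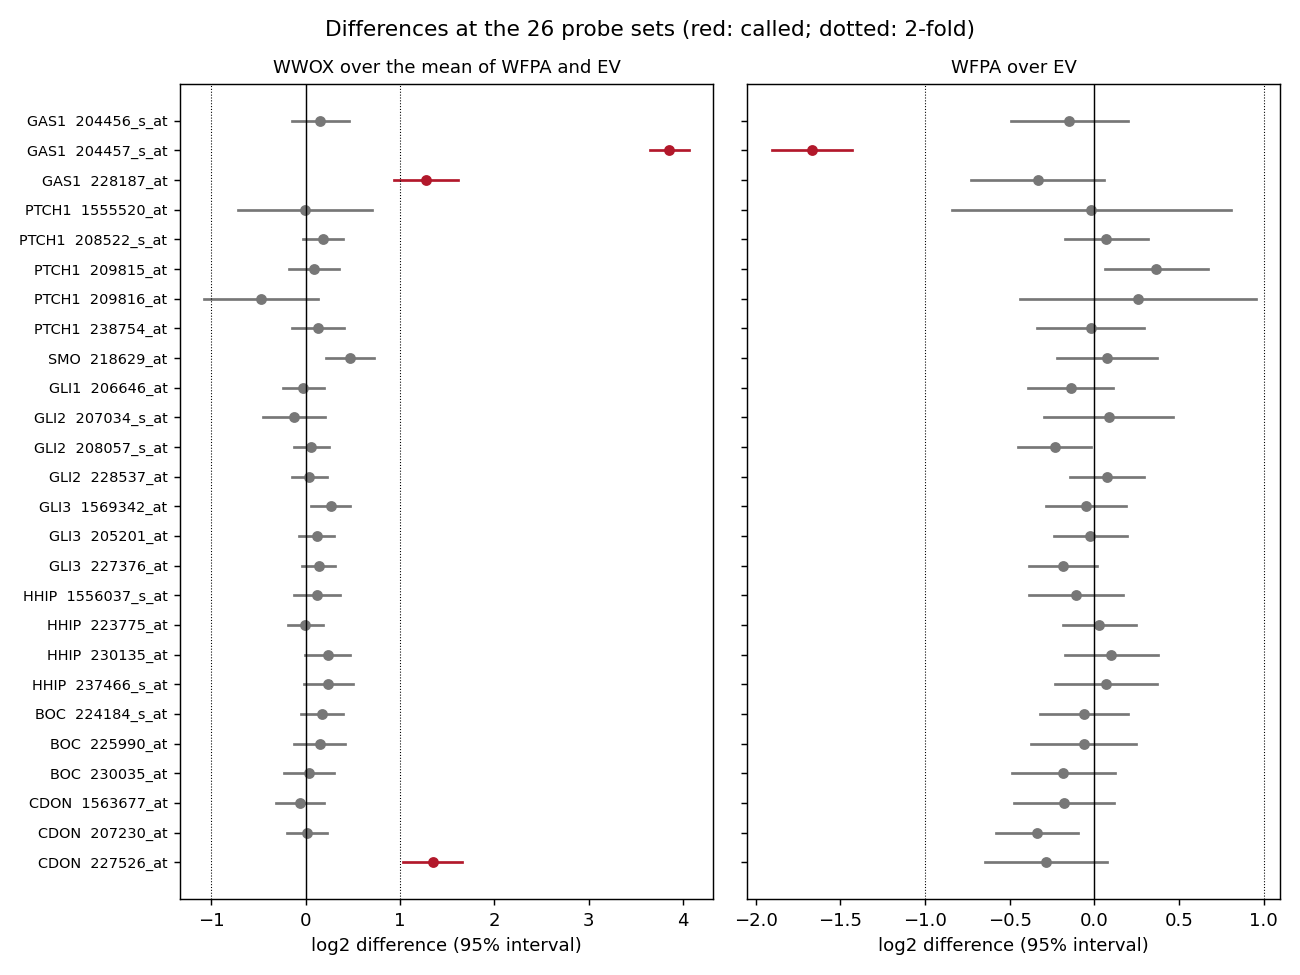
Log2 differences (x axis, with 95% intervals from limma) at the 26 probe sets, WWOX over the mean of WFPA and EV cells in the left panel and WFPA over EV cells in the right panel. Dotted lines mark 2-fold and red marks calls: 3 in the left panel, at 3.86, 1.27 and 1.35, and 1 in the right panel, at -1.67.

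The rest of the pathway was read through 5 lists of 79 further genes, of which 72 had a probe set of their own. For each gene the probe set of highest mean level over the 9 arrays was used. In WWOX cells against the mean of WFPA and EV cells, 1 of the 72 was higher and 0 were lower, beside 1.94% higher and 2.06% lower of all 19775 genes. Without the fold limit 9 were higher and 9 lower, beside 9.49% and 10.9% of all genes. At an unadjusted p under 0.05 from limma 16 were higher and 15 lower, beside 18% and 17.3% of all genes. Their median change was 0.06, beside 0.04 over all genes.

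Among the ligands and the proteins that release them, 0 of 8 genes were called, where 1.94% of all genes were higher and 2.06% lower. At an unadjusted p under 0.05 from limma 3 were higher and 0 lower, beside 18% and 17.3% of all genes. The ligand genes SHH, IHH and DHH changed by 0.36, 0.12 and -0.21 (adjusted p = 0.0753, 0.317 and 0.240 from limma). Of 9 genes of reception and SMO signalling, 0 were called. Past the p threshold alone 1 was higher and 0 lower, beside 9.49% and 10.9% of all genes. That gene was ARRB1, a beta-arrestin that binds SMO, which averaged 9.86 ± 0.212 in WWOX cells, 8.66 ± 0.0718 in WFPA cells and 9.20 ± 0.168 in EV cells (SD, n = 3 each), a change of 0.93 (adjusted p = 6.32e-04 from limma). Against WFPA cells alone its rise of 1.20 was called (adjusted p = 3.45e-04).

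Of 15 genes that process or restrain the GLI factors, 0 were called. Past the p threshold alone 1 was higher and 3 lower, beside 9.49% and 10.9% of all genes. SUFU, the main cytoplasmic inhibitor of the GLI factors, changed by -0.01 (adjusted p = 0.932 from limma). ULK3, a kinase that binds SUFU, lay 1.03 above WFPA cells and was called there (adjusted p = 0.00293), and its change against both groups was 0.82. DYRK2, a kinase that marks GLI2 for degradation, changed by -0.77 (adjusted p = 1.97e-04 from limma), under 2-fold.

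Of 22 genes of the primary cilium, 0 were called in either direction. Past the p threshold alone 3 were higher and 6 lower, where 9.49% and 10.9% of all genes were. At an unadjusted p under 0.05 from limma 4 were higher and 10 lower, where 18% and 17.3% of all genes were, and the list was not tested against all genes. The median change of the list was -0.21, beside 0.04 over all genes. IFT57, a subunit of the intraflagellar transport complex, changed by -0.50 (adjusted p = 0.00197), and TMEM67, a protein of the ciliary transition zone, by 0.72 (adjusted p = 0.00897 from limma).

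Among 18 reported GLI target genes, CDK6, the G1 cyclin-dependent kinase, was called higher in WWOX cells, and 0 were called lower. Of all genes 1.94% were called higher and 2.06% lower. Without the fold limit 4 of the 18 were higher and 0 lower, beside 9.49% and 10.9% of all genes. At an unadjusted p under 0.05 from limma 6 were higher and 1 lower, beside 18% and 17.3% of all genes. The list was not tested against all genes. CDK6 averaged 9.51 ± 0.104 in WWOX cells, 8.997 ± 0.166 in WFPA cells and 7.75 ± 0.232 in EV cells (SD, n = 3 each), a difference of 1.14 (adjusted p = 2.74e-04 from limma, standard error 0.119). WFPA cells lay 1.25 above EV cells as well (adjusted p = 9.83e-04 from limma), which is not the order found at GAS1 204457_s_at.

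Other target genes passed the p threshold and not the fold limit. They were NKX2-2 at 0.73 (adjusted p = 0.0417), SPP1 (osteopontin) at 0.71 (adjusted p = 3.07e-04) and FOXM1, a cell cycle regulator, at 0.48 (adjusted p = 0.0378 from limma). CCND1, which encodes cyclin D1, changed by -0.05 (adjusted p = 0.683 from limma). PDGFRA and GREM1 were dim on all 9 arrays. The sums of the 18 targets on the log2 scale were 14.05 to 14.10 on WWOX arrays, 13.68 to 13.72 on WFPA arrays and 13.91 to 13.95 on EV arrays. Bright genes weigh most in such a sum, among them CCND1 (12.70 in WWOX, 12.6 in WFPA and 12.90 in EV cells). Another is SPP1 (12.02 in WWOX, 11.33 in WFPA and 11.29 in EV cells). The sum thus does not describe the list as a whole.

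Between WFPA and EV cells, 1 of the 72 genes was higher and 1 lower, beside 1.54% and 0.693% of all genes. The higher gene was CDK6. The lower gene was FOXF1, a forkhead factor, with a change of -1.13 (adjusted p = 0.00535 from limma). It averaged 6.05 ± 0.321 in WWOX cells, 5.85 ± 0.210 in WFPA cells and 6.98 ± 0.133 in EV cells (SD, n = 3 each). WWOX cells were thus also lower than EV cells, with a change of -0.92 (adjusted p = 0.00852 from limma), under 2-fold.

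The choice of probe set mattered for these lists. When each gene was instead read by its most variable probe set, 4 were higher in WWOX cells (SFRP1 by 4.35, BCL2 by 1.43, TMEM67 by 1.27 and CDK6 by 1.14) and 4 were lower (CCND2 by -1.76, DYRK2 by -1.68, SPOP by -1.02 and IFT57 by -1.01). By the same choice 2.41% of all 19775 genes were higher and 3.2% lower, and choosing by variance favours changed probe sets for every gene. SFRP1, a secreted Wnt inhibitor, had a change of 0.20 at its main probe set (adjusted p = 0.179 from limma) and of 4.35 at 202037_s_at (adjusted p = 6.11e-07).

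**Figure D4:**
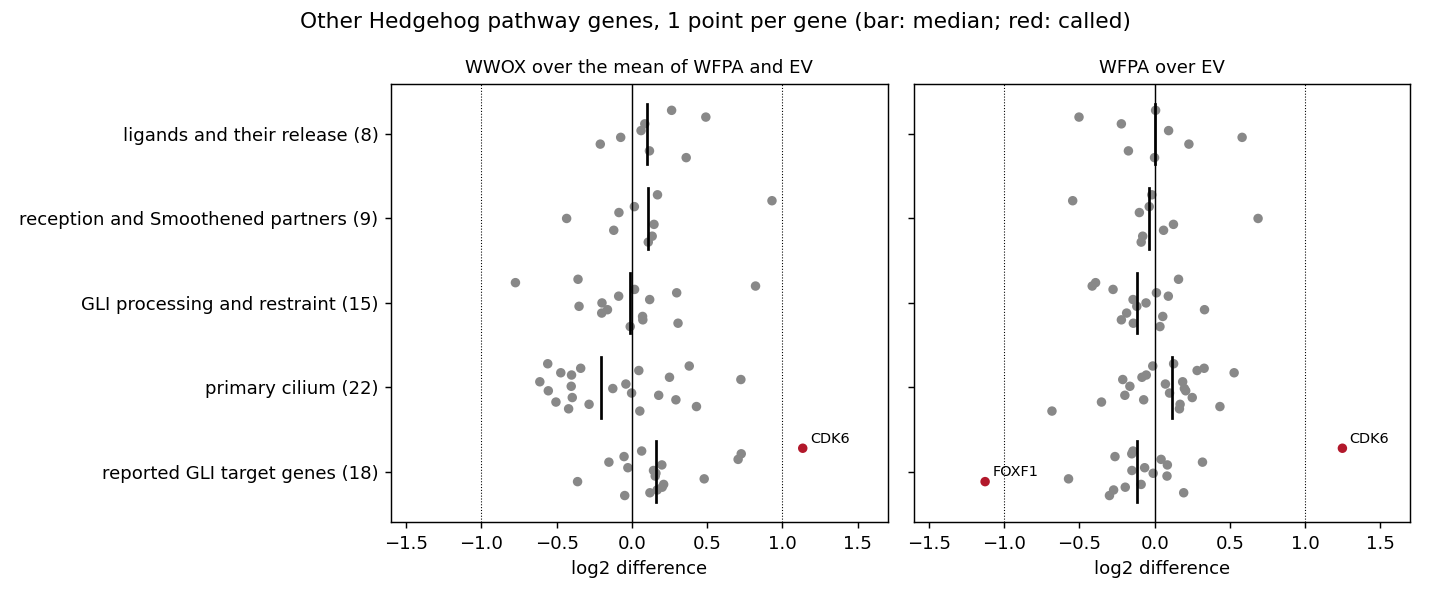
Log2 difference (x axis) of each of 72 further pathway genes, 1 point per gene, in 5 lists (y axis, with the number of genes measured), WWOX over the mean of WFPA and EV cells in the left panel and WFPA over EV cells in the right panel. Bars are list medians, dotted lines mark 2-fold, and the called genes, in red, are CDK6 at 1.14 and 1.25 and FOXF1 at -1.13.

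GAS1 is related in sequence to the receptors of the GDNF family of neurotrophic factors, and it has been reported to bind RET, their signalling partner, in cultured cells. None of 8 genes of that family was called in WWOX cells, where 1.94% of all genes were higher and 2.06% lower. At an unadjusted p under 0.05 from limma 1 was higher and 1 lower, beside 18% and 17.3% of all genes. RET changed by -0.11 and GFRA1, the GDNF receptor, by -0.08 (adjusted p = 0.453 and 0.583 from limma). Of 4 other growth arrest-specific genes, 0 were called, beside the same shares of all genes. At an unadjusted p under 0.05 from limma 2 of the 4 were higher and 1 lower. GAS5, a non-coding RNA, passed the p threshold at -0.50 (adjusted p = 0.00859 from limma), and GAS6, the ligand of the AXL receptor family, changed by 0.10 (adjusted p = 0.653).

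The 3 called probe sets moved alike across the 9 arrays. GAS1 204457_s_at had a Pearson r of 0.961 with CDON 227526_at and of 0.938 with GAS1 228187_at, and GAS1 228187_at had 0.894 with CDON 227526_at. With 3 groups of 3 arrays, such values describe mostly the differences between the groups. Among 1525 genes whose SD over the arrays was at least 0.5, the patterns most like GAS1 204457_s_at were those of TBXA2R (0.995), TRIM9 (0.995), FRMD3 (0.994), RASSF2 (0.992) and PRKAR2B (0.991).

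These genes were picked for their likeness to GAS1 204457_s_at, so that sharing its order of groups follows from the choice. TRIM9 averaged 7.67 in WWOX cells, 4.59 in WFPA cells and 5.76 in EV cells, and PRKAR2B, a regulatory subunit of protein kinase A, averaged 8.87 in WWOX, 3.86 in WFPA and 5.47 in EV cells. For GAS1 228187_at the nearest were SHC4 (0.979), CRACD (0.971), GPRC5B (0.965), FHDC1 (0.963) and PRKD1 (0.961). For CDON 227526_at they were HEY2 (0.984), EN2 (0.979), TMX4 (0.978), ARHGEF6 (0.976) and TWIST1 (0.975). TWIST1, a transcription factor of the mesoderm and neural crest, averaged 9.84 in WWOX cells, 7.26 in WFPA cells and 7.49 in EV cells.

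On GRCh38.p14, GAS1 (86944362 to 86947506) and PTCH1 (95442980 to 95516971) are both on chromosome 9, and CDON is on chromosome 11 (125956821 to 126063335). SMO and GLI3 are both on chromosome 7, GLI1 on chromosome 12, GLI2 on chromosome 2, HHIP on chromosome 4 and BOC on chromosome 3. PTCH1 had no called probe set, and whether position on the chromosome bears on the GAS1 change was not tested.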

How the data were processed

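RNA of MDA-MB435S cells was hybridized to 9 Affymetrix U133 Plus 2.0 arrays, 3 per group. Scans were calibrated and normalized by the authors with Partek Genomics Suite 6.5. The deposited table holds log2 intensities (base 2 is read from the values), the background and normalization method is not given in the sources used here, and no further normalization was applied. Of 54675 probe sets, 62 array controls were left out. Probe sets were named through the platform annotation of GEO, which can be old: 41091 had 1 gene, 1801 several and 11721 none, and none was named from several. The number of arrays limits the precision.

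A mean per group was fitted in limma 3.58.1 (R 4.3.3) to 54613 probe sets, with 6 residual and 3.04 prior degrees of freedom, and WWOX was set against the mean of WFPA and EV, against WFPA and against EV, and WFPA against EV. Adjustment was by the Benjamini-Hochberg method over all probe sets, and a call needed an adjusted p under 0.05 and at least 2-fold, where the methods used 4-fold and a Bonferroni adjustment. Intervals are 95% intervals of limma differences. The fit was tested on simulated data.

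Every probe set of the 9 genes is reported. In each of 12 further lists (129 genes, 12 of them with no probe set of 1 gene), up to 3 called genes were named, beside genes named for their role after their values were seen, and the 5 genes most like each called member by Pearson correlation. The members and lists were chosen with earlier results of these data known. Alternatives were 4-fold, no fold limit, Bonferroni adjustment, limma-trend, a robust prior, a plain 1-way model, leaving out dim probe sets at 2 limits, quantile normalization, median centring, the replicate number as a block, fewer groups in the fit, each array left out, and other choices of probe set. Figures were drawn with Python 3.11.15, pandas 2.3.3 and matplotlib 3.10.9.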

Additional observations from a re-analysis of the deposited data

How the results depend on the processing

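Over all alternatives, 2071 changes of single probe sets kept their side of the call and their direction where called, 19 lost a call, 2 gained one (SMO, with no fold limit) and 0 turned round. The GAS1 rise at 204457_s_at against the mean of WFPA and EV cells was called in all 22 alternatives, with adjusted p between 6.32e-09 and 7.08e-04. The lowest value among them, 1.76, came with the mean of all GAS1 probe sets in place of 204457_s_at. At 204457_s_at itself, leaving out each array in turn gave 3.81 to 3.93. At 4-fold, and with Bonferroni adjustment, 1 of 26 probe sets was higher in each of the 3 comparisons of WWOX cells, GAS1 204457_s_at. GAS1 228187_at then had a Bonferroni p of 0.760 and CDON 227526_at of 0.233 against the mean of WFPA and EV cells. At 4-fold 0 were lower in WFPA than in EV cells. Without each array in turn, 3 to 3 were higher and 0 to 0 lower against the mean of both groups and against WFPA cells, 2 to 3 higher and 0 to 0 lower against EV cells, and 0 to 0 higher and 1 to 1 lower in WFPA against EV cells. The 2 came without WWOX replicate 2 or without EV replicate 1. In the 72 further pathway genes, the probe set of largest variance gave 4 higher and 4 lower, and 4-fold gave 0 higher. With the mean of all probe sets of a gene, chosen after seeing the data, GAS1 rose by 1.76 and CDON by 0.43 (under 2-fold), and the GAS1 fall in WFPA cells was -0.72 (under 2-fold).

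Arrays of the same replicate number did not deviate together (r of -0.05 to 0.03 over 9 pairs, against -0.09 to 0.08 over 18 pairs of different number), and 0 arrays correlated best with their own number. With the replicate number as a block, 3 were higher and 0 lower in each comparison of WWOX cells, and 0 higher and 1 lower in WFPA against EV cells, so that no count changed.

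No background level is given, so the size of a change among the 7 probe sets that were dim on all arrays, and the absence of one at GLI1 and HHIP, is uncertain. The WWOX comparisons share arrays, and clone and construct cannot be told apart.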
